A study of Mus musculus with 8 samples.

Results

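The DNA replication machinery was followed in spheroids of 4T1 cells through 44 genes chosen by name, for their known roles: origin licensing factors, the replicative helicase, the polymerases, the sliding clamp and its loader, the makers of deoxynucleotides, and factors that rebuild chromatin behind the fork. All 44 have a row among the 41730 rows of the deposited count table, and 43 passed an ordinary filter on low counts, which kept 13393 genes in all. 4T1 is a transplantable mammary carcinoma line of the BALB/c mouse. The shCtrl cells received a lentivirus with a scrambled short hairpin RNA, and the shTlr7 cells a lentivirus with a hairpin against Tlr7, an endosomal receptor for single-stranded RNA. Each group had 4 libraries. Both groups were grown as hanging drops in serum-containing medium, and all the libraries come from the same line. Whether a group's libraries stem from separate transductions or cultures is not stated in the labels. The p-values therefore measure only the spread among these libraries, part or all of which may be technical.

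Replication starts when the origin recognition complex, Cdc6 and Cdt1 load the MCM helicase onto DNA in G1. In S phase Cdc45 and the GINS complex join it to form the active helicase, polymerase alpha-primase lays down primers, and polymerases epsilon and delta extend them on the leading and lagging strands. The clamp PCNA, loaded by RFC, holds the polymerases on DNA, RPA coats single strands, and Fen1 and Lig1 join the lagging-strand fragments. Many of these genes are known E2F targets whose mRNA rises as cells enter S phase.

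Library totals ranged from 18111623 to 93787535 counts. The targeted gene itself gave between 0 and 4 reads a library (2, 3, 2 and 2 for Tlr7 in the shCtrl libraries, 0, 4, 3 and 0 in the shTlr7 libraries), so the knockdown could not be checked at this depth. The library numbered 4 stood apart in both groups: chi-square per degree of freedom between libraries of a group was 11.5 to 20.2 for pairs with shCtrl replicate 4 and 2.14 to 3.07 for the other shCtrl pairs, and 10.6 to 13.1 against 4.27 to 9.40 in shTlr7. The fit was therefore repeated without both of them. Of the epithelial markers checked, all 5 were detected, with a summed level of 3656 to 3834 CPM (read counts scaled to a common library size) in shCtrl and 3098 to 3335 CPM in shTlr7. They did not move together. Krt14 fell from a mean of 36.2 CPM in shCtrl to 3.26 CPM in shTlr7, a log2 fold change of -3.50. Krt8 and Krt18 had log2 fold changes of -0.37 and -0.47, and Epcam and Cdh1 had 0.15 and 0.20. The 6 leukocyte markers summed to 1.12 to 1.51 CPM in shCtrl and 0.268 to 0.542 CPM in shTlr7, and 3 of them had 0 counts in every library. Only Csf1r among them passed the filter, at a mean of 1.14 CPM in shCtrl and 0.241 CPM in shTlr7. The 3 endothelial markers stayed between 0.133 and 0.536 CPM in sum. Of the 4 fibroblast markers only Pdgfra passed the filter, at a mean of 42.9 CPM over the 8 libraries, and the list's sum was 41.8 to 43.4 CPM in shCtrl and 41.8 to 46.6 CPM in shTlr7.

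Most of the replication genes that differed were lower in shTlr7, by small amounts. Rrm2, the small subunit of ribonucleotide reductase, rose and had the largest change. Of 43 genes tested, 23 fell and 5 rose (edgeR quasi-likelihood test, Benjamini-Hochberg adjusted p under 0.05 over all tested genes), and 15 did not pass. Over all 13393 genes 56.1% were called, 26.8% as lower and 29.3% as higher, beside 65.1%, 53.5% and 11.6% of the replication genes. Their median log2 fold change was -0.17, against 0.01 over all tested genes. Of the 28 that passed, 9 changed by under 1.2-fold, and only Rrm2 changed by at least 1.5-fold. In bulk RNA, fewer cells in S phase and less RNA per cell cannot be told apart. Values were scaled by TMM, a method that sets most genes to no change. With scaling by library size only, the all-gene median moved up by 0.10 (log2) and the split of the replication genes became 16 lower and 12 higher, with 2491 of all tested genes lower and 5513 higher. A test against a minimum fold of 1.2 left 7 lower and 1 higher. Without both libraries numbered 4, 26 were lower and 4 higher, while 61.3% of all tested genes were called, 30.0% lower and 31.3% higher, and the median was -0.23. For 26 replication genes (60.5%) the CPM ranges of the groups were disjoint, 20 with all shTlr7 libraries below and 6 with all above. Over all genes 49.8% of tested genes did not overlap, 23.8% with shTlr7 below and 26.0% above.

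**Figure D1:**
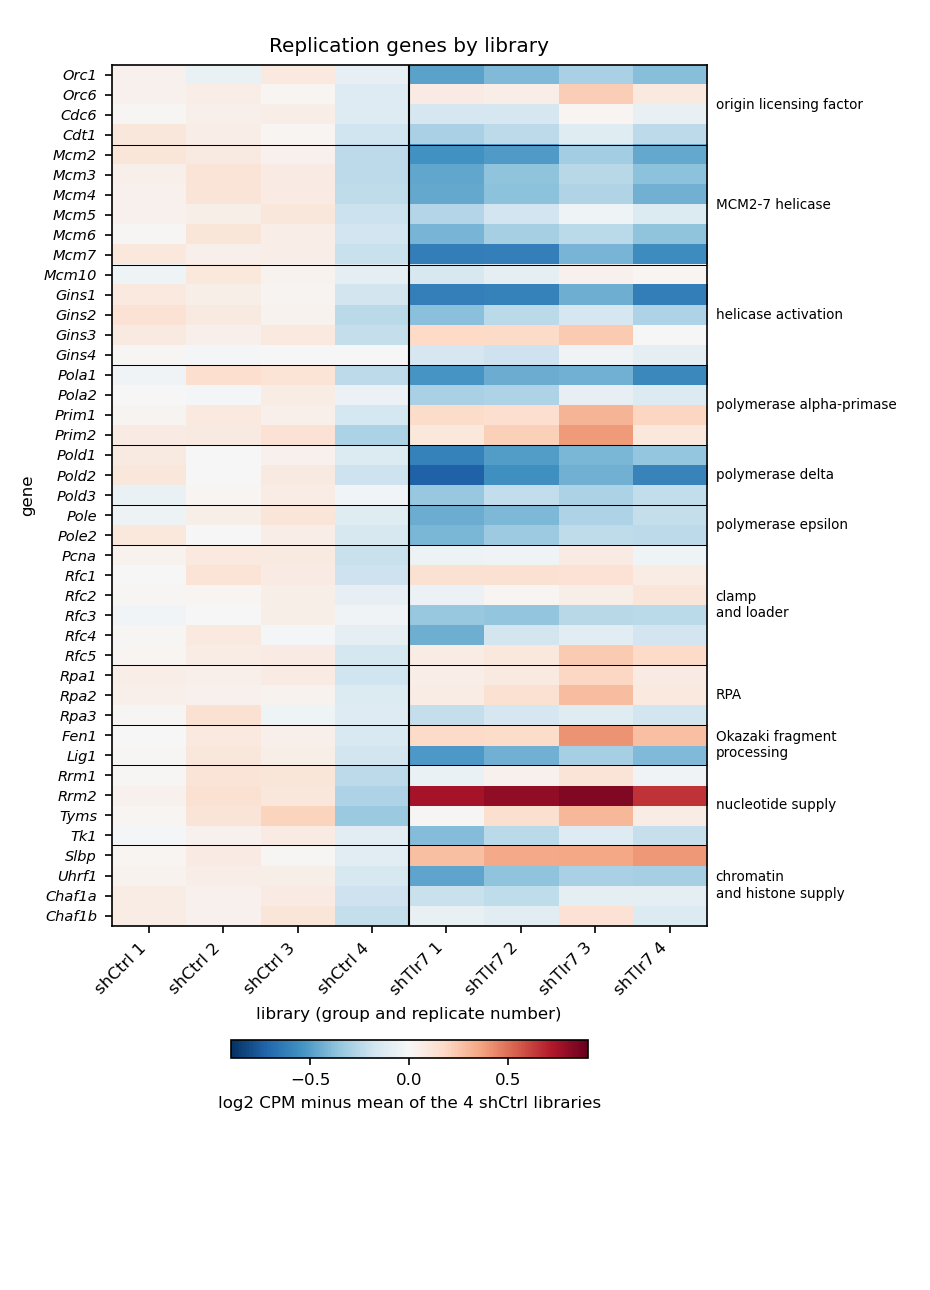
Each row is a replication gene and each column a library. Colour gives log2 CPM minus the mean of the 4 shCtrl libraries. Rrm2 and Slbp are above that mean in all 4 shTlr7 libraries, the rows of Mcm2 to Mcm7 and of polymerase delta are below it in all 4, and the column of shCtrl replicate 4 is below the other shCtrl columns in nearly all rows.

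Among the origin licensing factors, 2 of 4 fell and none rose. Orc1, an ATP-binding subunit of the origin recognition complex (chromosome 4, 108575705 to 108616030, GRCm38.p6), had 18.8, 17.5, 19.5 and 17.4 CPM in shCtrl and 13.1, 13.9, 14.9 and 14.0 CPM in shTlr7, each list in the order of replicates 1 to 4. The groups did not overlap. The log2 fold change of Orc1 came to -0.38 ± 0.07 (SE) (edgeR adjusted p = 0.00029). Cdt1, which brings the helicase to origins, fell by 0.22 on the log2 scale (edgeR adjusted p = 0.00639), although shCtrl replicate 4, at 101 CPM, lay inside the shTlr7 range of 92.9 to 105 CPM. Its call was lost under scaling by library size alone (edgeR adjusted p = 0.103). Cdc6, the loader that works beside Cdt1, had 49.0, 50.4, 50.9 and 44.9 CPM in shCtrl and 43.9, 43.9, 49.3 and 46.5 CPM in shTlr7. The groups overlapped, and the log2 fold change of -0.09 ± 0.06 (SE) did not pass the threshold (edgeR adjusted p = 0.189), and it was 0.01 under scaling by library size alone. It passed at -0.14 without shCtrl replicate 4 (edgeR adjusted p = 0.0376) and at -0.14 without both libraries numbered 4 (edgeR adjusted p = 0.0242). Orc6, another subunit of the origin recognition complex, had a log2 fold change of 0.11 ± 0.05 (SE) (edgeR adjusted p = 0.0979), with every shTlr7 library just above every shCtrl library.

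The helicase subunits Mcm2 to Mcm7 form a ring that is loaded as a unit, and 5 of the 6 fell. Mcm7 (chromosome 5, 138164583 to 138172111) fell the most. It had 263, 254, 257 and 214 CPM in shCtrl and 160.2, 161, 184 and 166 CPM in shTlr7, a log2 fold change of -0.56 ± 0.07 (SE) (edgeR adjusted p = 1.54e-05). Mcm2 (chromosome 6, 88883474 to 88898780) had 188, 185, 179.7 and 148 CPM in shCtrl and 119.7, 123, 140.3 and 127 CPM in shTlr7, a log2 fold change of -0.46 ± 0.07 (SE) (edgeR adjusted p = 0.000242). In both genes shCtrl replicate 4 was the lowest control and still lay above every shTlr7 library. Mcm4 had 243, 256, 248 and 201 CPM in shCtrl and 172, 183, 196 and 175 CPM in shTlr7, and Mcm3 had 252, 265, 258 and 207 CPM in shCtrl and 176, 191, 206 and 189.5 CPM in shTlr7. Their log2 fold changes were -0.39 ± 0.07 (SE) and -0.37 ± 0.07 (SE) (edgeR adjusted p = 0.000504 and 0.00112). For Mcm3, shCtrl replicate 4 and shTlr7 replicate 3 came within 1.40 CPM of each other. Mcm6 (chromosome 1, 128331575 to 128359705), which had the highest CPM of all the replication genes, had 426, 456, 441 and 377 CPM in shCtrl and 317, 344, 359 and 329.9 CPM in shTlr7, a log2 fold change of -0.33 ± 0.06 (SE) (edgeR adjusted p = 0.000313). Mcm5 (chromosome 8, 75109468 to 75128439) was the 1 subunit that did not pass. It had 255, 257, 266 and 217 CPM in shCtrl and 207, 220.0, 242 and 228 CPM in shTlr7, with shCtrl replicate 4 inside the shTlr7 range. Its log2 fold change of -0.15 ± 0.06 (SE) did not pass (edgeR adjusted p = 0.0633), but it passed at -0.22 without shCtrl replicate 4 (edgeR adjusted p = 0.000839), at -0.19 without shTlr7 replicate 3 (edgeR adjusted p = 0.0322) and at -0.22 without both libraries numbered 4 (edgeR adjusted p = 0.000201). Mcm5 also passed with DESeq2 at -0.16 (adjusted p = 0.0422).

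Per kilobase of exon, the helicase genes were expressed within a narrow band. In shCtrl they ranged from 52.0 CPM per kilobase for Mcm2 to 97.2 for Mcm6, with 66.0 for Mcm4, 71.9 for Mcm5, 81.0 for Mcm3 and 83.4 for Mcm7. In shTlr7 the corresponding levels were 37.8, 77.2, 50.5, 64.8, 62.9 and 56.7, so Mcm7 moved from the second highest of the band to below Mcm3 and Mcm5. No test was made between these levels, and the lengths are those of the union of coding transcripts in GENCODE vM21.

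The upstream sequences of 3 helicase genes with different fold changes are shown with that of Rrm2, the gene that rose most, because E2F binding is a textbook feature of this group. They were taken from RefSeq on GRCm38.p6 and run 5′ to 3′ on the gene's own strand, lower case, with capitals marking matches to the E2F letters TTTCCCGC, TTTCGCGC, TTTGCCGC or TTTGGCGC on either strand. The Mcm6 stretch is chr1:128359706-128359855, minus strand. That of Mcm5 is chr8:75109309-75109458, plus strand, and that of Mcm2 is chr6:88898781-88898930, minus strand. The Rrm2 stretch is chr12:24708091-24708240, plus strand.
Mcm6: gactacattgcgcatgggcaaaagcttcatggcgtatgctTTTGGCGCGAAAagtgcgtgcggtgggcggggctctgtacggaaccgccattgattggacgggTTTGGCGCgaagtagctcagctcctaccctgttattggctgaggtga
Mcm5: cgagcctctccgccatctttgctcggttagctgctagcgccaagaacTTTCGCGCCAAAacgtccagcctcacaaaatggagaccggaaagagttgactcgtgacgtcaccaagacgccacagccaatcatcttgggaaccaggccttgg
Mcm2: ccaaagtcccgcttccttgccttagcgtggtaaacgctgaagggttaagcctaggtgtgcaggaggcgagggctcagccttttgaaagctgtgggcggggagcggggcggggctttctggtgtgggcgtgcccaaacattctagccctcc
Rrm2: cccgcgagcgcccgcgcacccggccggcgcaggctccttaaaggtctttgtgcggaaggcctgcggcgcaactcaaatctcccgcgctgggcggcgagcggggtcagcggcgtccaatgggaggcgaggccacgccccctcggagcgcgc
The Mcm6 stretch holds 3 matches that begin 110, 106 and 47 bases before the start of the gene, the first 2 of which overlap. The Mcm5 stretch holds 2 overlapping matches that begin 153 and 149 bases before the start that the promoter table uses for this gene, 75109509, which lies inside the gene interval given above. These letters do not occur in the printed stretches of Mcm2 and Rrm2, which says nothing about binding there. Among the replication genes, 37 had at least 1 upstream window of 250 bases in the RefSeq table, 43 windows in all, and 9 windows of 9 genes (20.9%) held a match, against 1.86% of all 32851 windows. The median GC content was 61.2% in their windows and 52.4% in all windows. Of the 9 genes with a match, 6 fell and 0 rose. Of the 28 without, 27 were tested, of which 13 fell and 5 rose, while 26.8% of all tested genes fell and 29.3% rose. This split is a description and was not tested.

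**Figure D2:**
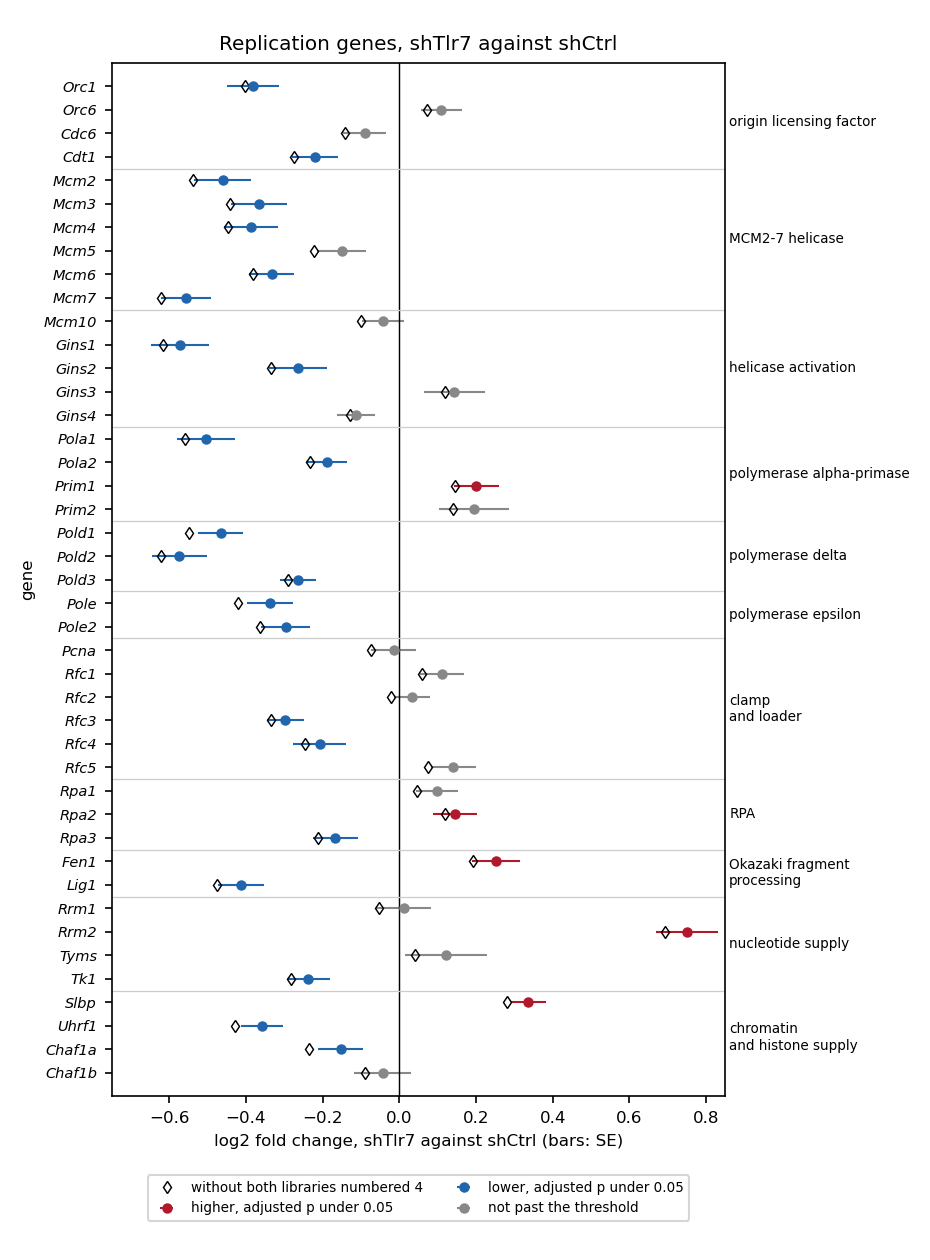
Log2 fold change of each replication gene in shTlr7 against shCtrl, with SE bars, coloured by call. Open diamonds give the value without both libraries numbered 4, which lies to the left of the full value in every row drawn. Rrm2 is at 0.75, and the lowest values are those of Pold2 and Gins1 at -0.57.

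Of the factors that turn the loaded ring into the active helicase, 2 of 5 tested genes fell and none rose. Gins1 (chromosome 2, 150909556 to 150931280), a subunit of the GINS complex, had 20.1, 19.6, 19.1 and 16.8 CPM in shCtrl and 12.3, 12.4, 13.9 and 12.3 CPM in shTlr7, with no overlap. Its log2 fold change was -0.57 ± 0.07 (SE) (edgeR adjusted p = 2.25e-05). Gins4 had 40.4, 39.6, 40.3 and 40.3 CPM in shCtrl and 36.2, 35.3, 39.4 and 37.7 CPM in shTlr7. Although the groups did not overlap, the difference of -0.11 ± 0.05 (SE) did not pass (edgeR adjusted p = 0.0665). It passed without shTlr7 replicate 3 (-0.14, edgeR adjusted p = 0.0333) and without both libraries numbered 4 (-0.13, edgeR adjusted p = 0.0478). Gins3 had a log2 fold change of 0.14 ± 0.08 (SE) (edgeR adjusted p = 0.14), and Mcm10, a scaffold for polymerase alpha, one of -0.04 ± 0.06 (SE) (edgeR adjusted p = 0.534), or 0.06 under scaling by library size alone. Gins2 fell by 0.26 on the log2 scale (edgeR adjusted p = 0.00948), a call that was lost under scaling by library size alone (edgeR adjusted p = 0.0838). However, 70.7% of its exon bases overlap Gse1 on the other strand, which had a log2 fold change of 0.24, and the strand setting of the counting is not given in the sources used here. Cdc45, the remaining member of the active helicase, had 3 counts over all 8 libraries. The table lists a further copy of this gene with 0 counts, so its row was not read as a level.

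Of the polymerases that extend DNA, all 3 polymerase delta genes and both polymerase epsilon genes in the group fell, with no overlap between shCtrl and shTlr7. Pold2 (chromosome 11, 5872180 to 5878256), the accessory subunit of polymerase delta, had 104, 96.9, 102 and 84.8 CPM in shCtrl and 58.3, 66.0, 71.6 and 63.6 CPM in shTlr7, a log2 fold change of -0.57 ± 0.07 (SE) (edgeR adjusted p = 2.05e-05). Pold1 (chromosome 7, 44532744 to 44548815), the catalytic subunit, had 119.6, 113, 116 and 104 CPM in shCtrl and 74.2, 79.5, 84.9 and 88.6 CPM in shTlr7, a log2 fold change of -0.47 ± 0.06 (SE) (edgeR adjusted p = 1.84e-05). For Pold1, shTlr7 replicate 4 was the highest of its group, while for Pold2 it was shTlr7 replicate 3. The catalytic subunit of polymerase epsilon, Pole, had 124, 133, 138 and 119 CPM in shCtrl and 94.0, 96.8, 106 and 110.4 CPM in shTlr7, a log2 fold change of -0.34 ± 0.06 (SE) (edgeR adjusted p = 0.000343). Pold3 and Pole2 fell less, by 0.26 and 0.30 on the log2 scale (edgeR adjusted p = 0.000294 and 0.00152).

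In polymerase alpha-primase, which starts every new strand, both polymerase subunits fell and 1 of the 2 primase subunits rose. Pola1, the catalytic polymerase subunit (chromosome X, 93304766 to 93632387), had 119, 136, 133 and 104 CPM in shCtrl and 84.6, 89.5, 90.7 and 81.8 CPM in shTlr7, a log2 fold change of -0.50 ± 0.08 (SE) (edgeR adjusted p = 0.000129). Its partner Pola2 fell from 127 ± 4.33 CPM to 111 ± 8.46 CPM (mean ± SD, n = 4 here and below; edgeR adjusted p = 0.00765), and this call was lost under scaling by library size alone (edgeR adjusted p = 0.187). The primase subunit Prim1, which makes the RNA primer, rose from 44.8 ± 3.25 CPM to 51.6 ± 2.58 CPM, or by 0.20 ± 0.06 (SE) in log2 (edgeR adjusted p = 0.0103), with every shTlr7 library above every shCtrl library. Prim2, the large primase subunit, had a log2 fold change of 0.20 ± 0.09 (SE) and did not pass (edgeR adjusted p = 0.0875). It passed as higher under scaling by library size alone (0.30, edgeR adjusted p = 0.0124) and without the filter on low counts (0.21, edgeR adjusted p = 0.0129).

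The sliding clamp Pcna and most of its loader gave smaller values. Pcna, the gene with the highest level per kilobase in the group (141 CPM per kilobase in shCtrl and 139 in shTlr7), had 218, 227, 225 and 185 CPM in shCtrl and 206, 209, 224 and 208 CPM in shTlr7. The ranges overlapped almost wholly, and the log2 fold change was -0.01 ± 0.06 (SE) (edgeR adjusted p = 0.847), and 0.09 under scaling by library size alone. Rfc3, a small subunit of the clamp loader, had 43.6, 44.3, 46.0 and 43.4 CPM in shCtrl and 35.0, 34.6, 37.3 and 37.4 CPM in shTlr7, with no overlap and a log2 fold change of -0.30 ± 0.05 (SE) (edgeR adjusted p = 0.000148). Rfc4 fell by 0.21 on the log2 scale (edgeR adjusted p = 0.0217), a call lost without shCtrl replicate 2 (-0.18, edgeR adjusted p = 0.0755) and under scaling by library size alone (-0.10, edgeR adjusted p = 0.221). The large subunit Rfc1 was at 0.11 ± 0.06 (SE), Rfc2 at 0.03 ± 0.05 (SE) and Rfc5 at 0.14 ± 0.06 (SE) (edgeR adjusted p = 0.113, 0.575 and 0.0524). Rfc2 was at -0.02 without both libraries numbered 4. Rfc1 passed at 0.15 without shCtrl replicate 2 (edgeR adjusted p = 0.0456), and Rfc5 passed at 0.16 without shTlr7 replicate 1 (edgeR adjusted p = 0.0438).

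RPA, the single-strand binding protein, had subunits near the threshold in both directions. Rpa2 had 45.6, 45.4, 45.2 and 40.6 CPM in shCtrl and 46.4, 48.7, 53.5 and 46.9 CPM in shTlr7. The groups did not overlap, and its log2 fold change of 0.15 ± 0.06 (SE) passed narrowly (edgeR adjusted p = 0.0464). That call was lost without any single library among shCtrl replicates 1 to 4 and shTlr7 replicates 2 and 3, with values from 0.10 to 0.16 and edgeR adjusted p from 0.0680 to 0.148, and at 0.12 without both libraries numbered 4 (edgeR adjusted p = 0.0559). It was also lost under RLE scaling (edgeR adjusted p = 0.0672) and with DESeq2 (adjusted p = 0.0780). Of the 20 alternatives, 13 lost the Rpa2 call. Rpa3 fell by 0.17 on the log2 scale (edgeR adjusted p = 0.0267). Its call was lost without shCtrl replicate 1, shCtrl replicate 2, shTlr7 replicate 1 or shTlr7 replicate 2, with edgeR adjusted p from 0.0526 to 0.112, without the filter on low counts (edgeR adjusted p = 0.0634) and under scaling by library size alone (-0.06, edgeR adjusted p = 0.365). Rpa1, the large subunit, had a log2 fold change of 0.10 ± 0.06 (SE) (edgeR adjusted p = 0.144).

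The enzymes that finish Okazaki fragments moved apart. Lig1, the ligase that seals them (chromosome 7, 13277175 to 13311426), had 162, 173, 168 and 144 CPM in shCtrl and 113, 119.6, 131 and 122 CPM in shTlr7, a log2 fold change of -0.41 ± 0.06 (SE) (edgeR adjusted p = 7.11e-05), and the groups did not overlap. Fen1, the flap nuclease, rose from 86.9 ± 5.86 CPM to 104 ± 8.11 CPM, or by 0.25 ± 0.06 (SE) in log2 (edgeR adjusted p = 0.00352). The value for Fen1 is uncertain, because 84.1% of its exon bases overlap transcripts on the opposite strand, those of Gm10143 and Tmem258. Tmem258 had a log2 fold change of -0.02 (edgeR adjusted p = 0.749), and Gm10143 has no row under that name in the deposited counts. The ratio of Fen1 to Lig1 counts was 0.538 ± 0.00712 in shCtrl and 0.854 ± 0.0286 in shTlr7 (mean ± SD, n = 4 each).

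**Figure D3:**
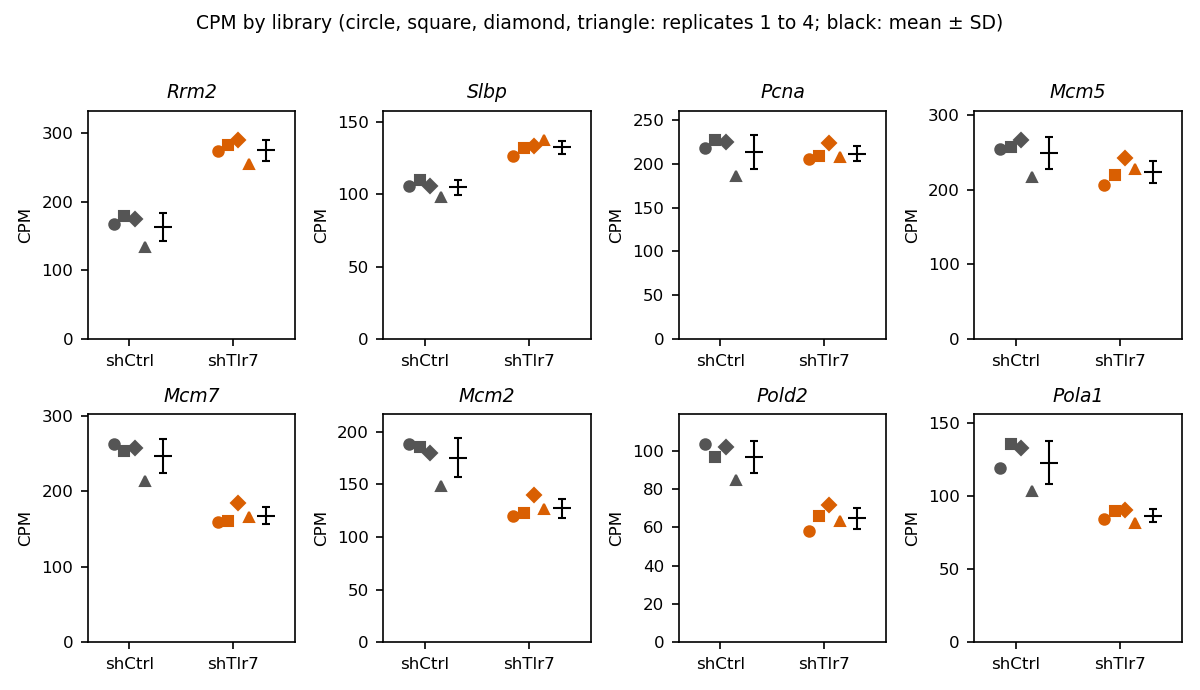
CPM of 8 replication genes in each library, with the axis from 0. Symbols mark replicates 1 to 4 and black bars the mean ± SD. Rrm2 and Slbp are higher in all 4 shTlr7 libraries, Pcna and Mcm5 overlap, and Mcm7, Mcm2, Pold2 and Pola1 are lower in all 4.

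Nucleotide supply held the largest change of the whole group. Rrm2, the small subunit of ribonucleotide reductase, whose level limits the making of deoxynucleotides in S phase (chromosome 12, 24708254 to 24714146), had 167, 179, 174 and 134 CPM in shCtrl and 273, 283, 289 and 255 CPM in shTlr7. Every shTlr7 library lay above every shCtrl library, by at least 75.8 CPM. The log2 fold change was 0.75 ± 0.08 (SE) (edgeR adjusted p = 1.59e-05), a rise of 68.2%, and 0.69 without both libraries numbered 4 (edgeR adjusted p = 1.11e-14). Over the 20 alternatives it ranged from 0.66 to 0.85. Rrm1, the large subunit of the same enzyme, had 282, 303, 301 and 237 CPM in shCtrl and 268, 287, 303 and 274 CPM in shTlr7. These ranges overlapped, and the log2 fold change was 0.01 ± 0.07 (SE) (edgeR adjusted p = 0.904), or -0.05 without both libraries numbered 4. Per kilobase the subunits were at 74.5 (Rrm2) and 70.2 (Rrm1) in shCtrl and at 125 and 70.8 in shTlr7. Tk1, the salvage kinase for thymidine, fell from 181 ± 9.25 to 153 ± 12.1 CPM (edgeR adjusted p = 0.00293), a call lost under scaling by library size alone (edgeR adjusted p = 0.0578), whereas Tyms, which makes thymidylate anew, had a log2 fold change of 0.12 ± 0.11 (SE) (edgeR adjusted p = 0.356). Reads of Rrm2, Mcm7, Cdc6, Pcna, Rfc5, Slbp and Uhrf1 could be shared with a processed pseudogene at least 95% identical over at least 200 bases that has no row of its own, and Tyms shares such a stretch with transcripts of 18 other genes.

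Among the factors for histones and chromatin, Slbp rose and Uhrf1 fell. Slbp, which binds the stem-loop of replication-dependent histone mRNAs (chromosome 5, 33640055 to 33652574), had 106, 109.9, 106 and 97.8 CPM in shCtrl and 127, 132, 133 and 137 CPM in shTlr7. The groups did not overlap, and the log2 fold change was 0.34 ± 0.04 (SE) (edgeR adjusted p = 2.63e-05). Uhrf1, which recruits the maintenance DNA methyltransferase to newly copied DNA (chromosome 17, 56303337 to 56323486), had 246, 250.1, 249.9 and 217 CPM in shCtrl and 173, 187, 196 and 196 CPM in shTlr7, a log2 fold change of -0.36 ± 0.05 (SE) (edgeR adjusted p = 8.51e-05). Chaf1a, the large subunit of the histone chaperone CAF-1, fell by 0.15 on the log2 scale (edgeR adjusted p = 0.0399). This call was lost without shCtrl replicate 1, 2 or 3 or shTlr7 replicate 1 or 2, with edgeR adjusted p from 0.0917 to 0.124, under upper-quartile scaling (edgeR adjusted p = 0.0516), and under scaling by library size alone (-0.05, edgeR adjusted p = 0.496). Of its exon bases 33.6% overlap Ubxn6, which had a log2 fold change of -0.01. The other subunit, Chaf1b, was at -0.04 ± 0.07 (SE) (edgeR adjusted p = 0.642), or 0.06 under scaling by library size alone.

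Subunit proportions differed between the groups in the helicase ring, GINS, polymerase alpha-primase, polymerase delta, the clamp loader, RPA and ribonucleotide reductase. The ratios of Pole2 to Pole and of Chaf1b to Chaf1a did not pass. The ratio of Pole2 to Pole leaves out the subunits Pole3 and Pole4, which are not in this group of genes. Their log2 fold changes were 0.12 and 0.71 (edgeR adjusted p = 0.0947 and 4.36e-08), against -0.34 for Pole and -0.30 for Pole2. For the complexes named here, the counts of a subunit were divided by the geometric mean of the others among the replication genes, within the same library. This ratio does not depend on how libraries are scaled. No ratio was made for the origin recognition complex, of which Orc1 and Orc6 were tested (log2 fold changes of -0.38 and 0.11). Of 28 ratios, 18 passed in an exact permutation test over the libraries (two-sided, 4 against 4, Benjamini-Hochberg adjusted p = 0.0444 for each, from p = 0.0286, the smallest the design allows), 11 higher and 7 lower in shTlr7. In these 18 the groups did not overlap. How often ratios between other genes separate the groups was not computed. Of all tested genes taken singly, 49.8% did not overlap. None of the 28 ratios changed its sign without the libraries numbered 4. The ratios of a complex are not independent, because a fall of 1 subunit raises the ratios of the rest. Mcm5 gained on the rest of its ring by 0.27 (log2), while Mcm7 changed by -0.22 and Mcm2 by -0.10 against it. Against their own partners, Gins1 changed by -0.49, Gins3 by 0.46, Pola1 by -0.57, Prim1 by 0.37, Prim2 by 0.36 and Pold3 by 0.26. The log2 fold changes of Prim1 and Prim2 themselves were 0.20 each, and that of Pola1 was -0.50. The GINS ratios include Gins2, 70.7% of whose exon bases overlap Gse1. In the clamp loader Rfc3 and Rfc4 changed by -0.32 and -0.22, and Rfc5 by 0.23. Rpa3 changed by -0.28 against the other RPA subunits. The largest shift among the 28 ratios was that of Rrm2 against Rrm1, at 0.74. In counts, Rrm2 to Rrm1 was 0.592, 0.590, 0.579 and 0.564 in shCtrl replicates 1 to 4 and 1.02, 0.985, 0.954 and 0.931 in shTlr7 replicates 1 to 4. Prim1 to Pola1 went from 0.367 ± 0.0204 to 0.596 ± 0.0301, and Mcm7 to Mcm5 from 0.994 ± 0.0276 to 0.750 ± 0.0228 (mean ± SD, n = 4 each). These count ratios hold gene length constant between the groups but are not molar ratios.

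**Figure D4:**
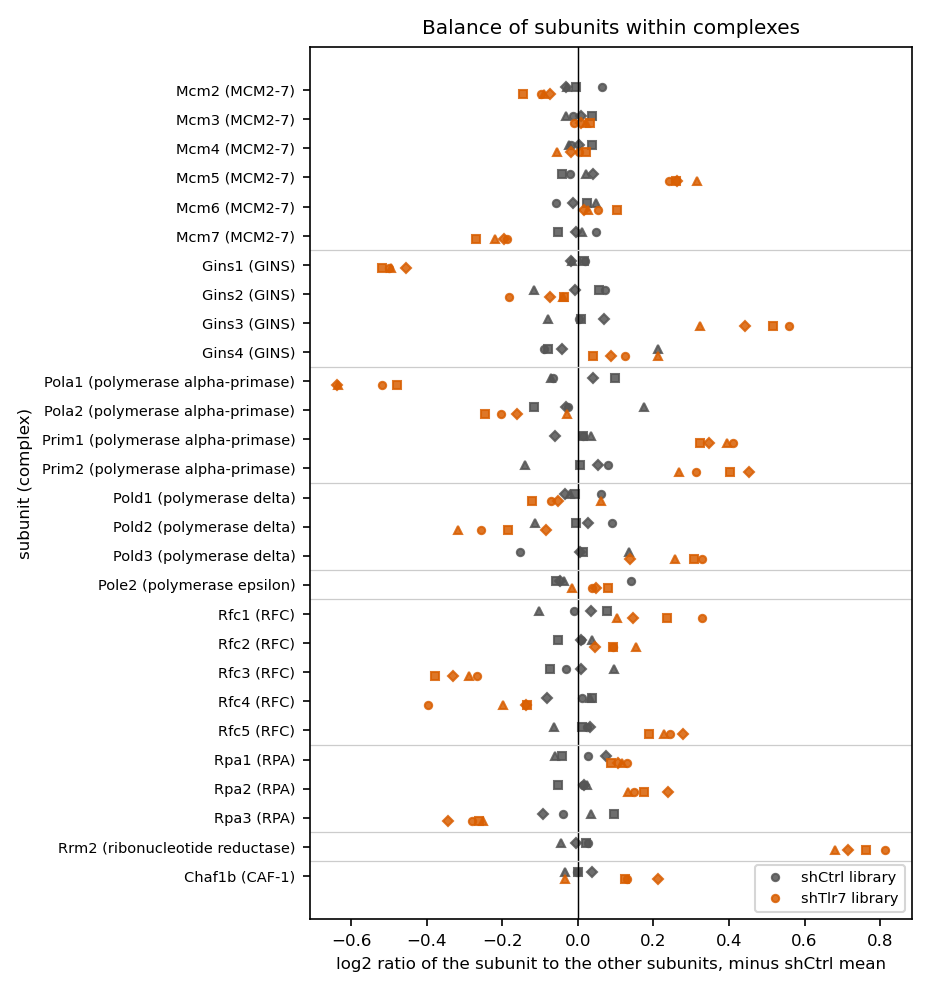
For each subunit, the log2 ratio of its counts to the geometric mean of the other subunits of its complex, minus the shCtrl mean, with 1 symbol per library. The 4 shTlr7 points of Rrm2, Gins1, Pola1, Prim1, Rfc3, Mcm5 and Mcm7 lie apart from the shCtrl points, and those of Mcm3 lie among them.

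Within shCtrl, the library numbered 4 stood below the others for nearly all replication genes. It had the lowest CPM of the 4 controls for 41 of the 43 genes, against 36.2% of all tested genes, and it lay below the mean of shCtrl replicates 1 to 3 for 42, by a median of 0.22 (log2). In shTlr7 the library numbered 4 was below the mean of the other 3 for 23 of 43 genes, with a median shift of -0.01. Falls were smaller and rises larger in the pair numbered 4 than in replicates 1 to 3, for all 23 genes called lower and all 5 called higher. Mcm7 was at -0.37 in the pair numbered 4 and -0.62 in replicates 1 to 3, and Rrm2 at 0.93 and 0.70 (log2). The interaction of group with being numbered 4 was positive for all 43 replication genes, against 47.6% of all tested genes. This was not particular to them. Of the related lists described below, it was positive for 43 of 47 partner genes, 19 of 19 mitosis genes and 13 of 16 regulators of G1 to S. None of the 43 passed the threshold for this interaction (edgeR adjusted p of at least 0.142), while 24 had an unadjusted p under 0.05. Over all tested genes 0.373% passed, and 9.67% had an unadjusted p under 0.05. This fit assumes that the single libraries numbered 4 vary like the others. The median of the replication genes, taken from the shCtrl mean, was 0.03, 0.06, 0.06 and -0.17 in shCtrl replicates 1 to 4 and -0.26, -0.19, -0.08 and -0.13 in shTlr7 replicates 1 to 4 (log2), so shCtrl replicate 4 stood within the shTlr7 range. The same median over all tested genes stayed between -0.00079 and 0.0217 in all 8 libraries. TMM scaling itself holds that all-gene median near no change, so its flatness is not a separate result.

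**Figure D5:**
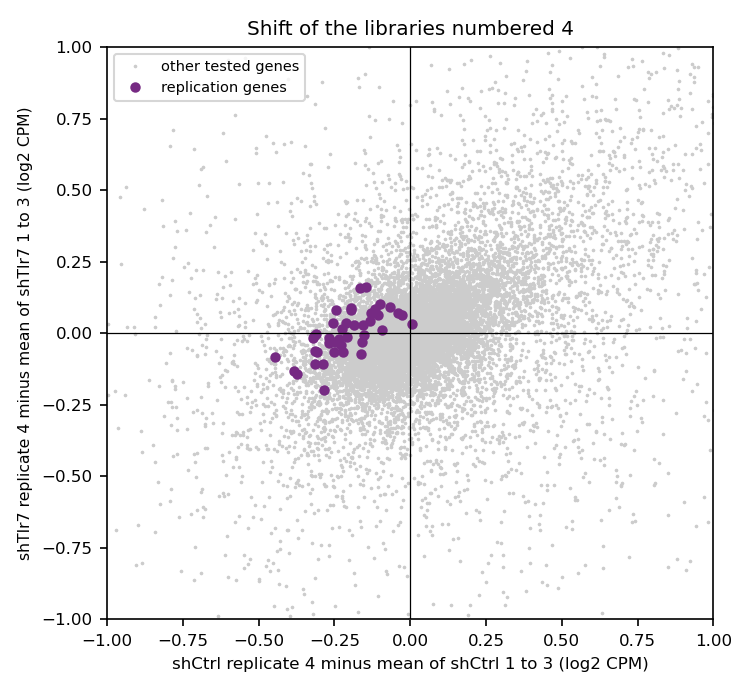
Shift of the library numbered 4 from the mean of replicates 1 to 3, in shCtrl (horizontal) and shTlr7 (vertical), in log2 CPM, with a point per gene. Replication genes sit left of 0 with 1 exception and are spread around 0 vertically, and 280 genes lie outside the plotted range of -1 to 1.

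Other genes of replication and the cell cycle gave a mixed picture. Of 47 tested partner genes out of 50 listed (other origin, fork, nucleotide and chromatin assembly genes), 13 rose and 13 fell (27.7% each), with a median log2 fold change of 0.01. These shares were close to those over all tested genes, of which 29.3% rose and 26.8% fell. Under scaling by library size alone 20 were higher and 9 lower. The nuclease-helicase Dna2 rose from 8.55 ± 0.561 to 18.3 ± 1.23 CPM, and Pole4, a small subunit of polymerase epsilon, had a log2 fold change of 0.71, opposite to Pole and Pole2. Timeless, of the fork protection complex, fell by 0.69 and Dhodh, an enzyme of pyrimidine synthesis, by 0.98 on the log2 scale (edgeR adjusted p = 4.36e-08 for Pole4, 6.07e-08 for Dna2, 1.24e-06 for Timeless and 6.56e-07 for Dhodh). Of 19 tested mitosis genes, 10 fell (52.6%) and 1 rose (5.26%), with a median of -0.12. The 1 that rose was Mki67 (0.18, edgeR adjusted p = 0.00632). Under scaling by library size alone, 5 of the 19 fell and 3 rose. The lowest p among them belonged to the spindle checkpoint kinase Bub1b (-0.43), the cyclin Ccnb2 (-0.35), the kinesin Kif23 (-0.23) and the spindle factor Tpx2 (-0.27), with edgeR adjusted p from 5.02e-06 to 0.00073. The mitosis genes had shCtrl replicate 4 as the lowest control in 17 of 19 cases and the partner genes in 39 of 47. This held for 7 of 16 regulators of the passage from G1 to S, and for 36.2% of all tested genes. Of 16 regulators of the passage from G1 to S, 7 rose (43.8%) and 4 fell (25.0%), with a median of 0.08. Ccne1, cyclin E1, was at 10.5 ± 1.16 CPM in shCtrl and 31.4 ± 2.46 in shTlr7, the largest rise on that list (log2 fold change 1.59), and the repressor E2f8 was at 244 ± 23.2 and 112 ± 8.95 CPM (-1.12). Ccnd1, cyclin D1, had a log2 fold change of -0.75 and the kinase inhibitor Cdkn1a one of 1.12, with edgeR adjusted p of at most 1.32e-07 for these 4 genes, and the count table lists Cdkn1a a second time as a further copy. The part of cell cycle distribution in the replication genes' changes was not tested.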

How the data were processed

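The data are raw read counts, 1 whole number per gene and library, which the authors deposited without normalization for 8 libraries. Per the labels' protocols, a Norgen kit for total RNA and the TruSeq RNA kit of Illumina were used. In the submitters' processing notes STAR 2.7.5, DESeq2 1.32.0 and GRCm38 appear without roles. How reads were counted, with which annotation and strand setting, is not given in the sources used here. Reads from overlapping genes on opposite strands can therefore not be told apart. Exons of other genes covered at least 30% of the exon bases of Gins2, Fen1 and Chaf1a. They covered under 20% in 13 other replication genes, among them Orc1, Mcm7, Rfc2, Rfc4, Rfc5, Lig1 and Slbp. Groups and replicate numbers come from the sample titles.

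The deposited counts were fitted over all genes with edgeR 4.0.16 in R 4.3.3 (filterByExpr, TMM scaling, robust quasi-likelihood test of shTlr7 against shCtrl, no covariates), with Benjamini-Hochberg adjustment and a threshold of 0.05. The biological coefficient of variation was 6.76%. CPM are TMM-scaled, and SE are log2 fold changes divided by the square root of F. The fit was tested on simulated data in which few genes changed and no library stood apart. That test does not cover changes in most genes or odd libraries such as those numbered 4. Alternatives were RLE, upper-quartile and library-size scaling, other filters, DESeq2 1.42.0, limma 3.58.1 (voom), a minimum fold of 1.2, a threshold of 0.01, a replicate block, summed gene copies, and leaving out each library or both libraries numbered 4. Exon overlaps and lengths were taken from GENCODE vM21, and near-identical transcripts from BLAST 2.17.0. The genes described in full are the 12 replication genes with the lowest p, the 4 with the largest other called changes, those whose call differed without both libraries numbered 4, and the 4 with the lowest p on each related list. Others are named to account for the group. The members and lists were chosen with earlier results of these data known. Count ratios between 2 named genes were chosen after their values were seen.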

Additional observations from a re-analysis of the deposited data

Results flagged for a closer look

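In 10 of the 86 groups of 4 values (43 genes in 2 groups), 1 library lay far from the other 3 by Dixon's criterion at 95%, where chance flags about 1 in 20 groups. In 6 of them the library was shCtrl replicate 4, each time as the lowest value. Gins3, a GINS subunit, had 14.4 CPM there against 17.3 to 17.7 in the other controls, and Prim2 had 25.5 against 32.7 to 34.0. Rpa1 had 135 CPM against 158 to 161, and Rpa2 had 40.6 against 45.2 to 45.6. Uhrf1 had 217 CPM against 246 to 250.1, and Chaf1a had 107 against 125 to 128. In 3 the library was shTlr7 replicate 3, as the highest value. Orc6 had 62.6 CPM against 56.2 to 57.1 in the other shTlr7 libraries, Gins1 had 13.9 against 12.3 to 12.4, and the clamp Pcna had 224 against 206 to 209. In the remaining group, Rfc1 had 137 CPM in shTlr7 replicate 4 against 143 to 144.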

How the results depend on the processing

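Of the 28 replication genes called, 8 (Mcm2, Mcm7, Gins1, Pola1, Pold1, Pold2, Lig1 and Rrm2) kept direction and call under all 20 alternatives, and 20 did so under all but the minimum fold of 1.2 and the threshold of 0.01. Against 5 higher, 12 were higher under scaling by library size alone, 8 without a filter, 3 at a threshold of 0.01 and 1 with the minimum fold of 1.2, which left 7 lower in place of 23, and 1653 genes higher and 1651 lower in place of 3927 and 3590. Leaving out 1 library gave 4 to 6 higher, 20 to 25 lower and medians of -0.22 to -0.14. Scaling by library size alone gave a median of -0.063, 20 partner genes higher with 9 lower, and 3 mitosis genes higher with 5 lower. It added calls as higher for Orc6, Gins3, Prim2, Rfc1, Rfc2, Rfc5 and Rpa1. It also turned Cdc6 to 0.014, Mcm10 to 0.062, Pcna to 0.089 and Chaf1b to 0.060. Pcna was 0.0037 without a filter and ranged from -0.085 to 0.011 with 1 library left out, positive without shCtrl replicate 2 or 3. Rfc2 was -0.022 without both libraries numbered 4. Rrm1 was -1.82e-05 with DESeq2, -0.039 with limma-voom and -0.052 without both libraries numbered 4, and ranged from -0.069 to 0.047 with 1 library left out, negative without shCtrl replicate 4 or shTlr7 replicate 3. None of these reversed values passed the test, and the cause was not tested.

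The labels do not say what a replicate number marks. Deviations of same-numbered libraries correlated at -0.01, 0.11, 0.12 and 0.38 for numbers 1 to 4, and shCtrl replicate 1 correlated best with shTlr7 replicate 3, so the numbers were not taken to pair the libraries. A replicate block gave 9 higher and 25 lower, adding calls for Gins3, Prim2, Rfc1 and Rfc5 as higher and Mcm5 and Gins4 as lower. Tlr7 could not be quantified at this depth.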
